A study of Mus musculus with 7 samples.

Results

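Exon inclusion was compared between 2 RNA sequencing libraries of mouse neocortex: a wildtype library at postnatal day 1 (P1) from 129/BL6 mice, and a postnatal day 2 (P2) library from BL6 mice. Each exon was described by its inclusion, that is, how often in 100 transcripts of the gene the exon is kept. The exons were those for which the study gave levels at several ages and which, by chromosome, start, end and strand, were also among the exons it listed as regulated by PTBP2 or PTBP1. They numbered 268 of 611 listed exons, from 245 genes. Further libraries of the study serve as a scale: the Ptbp2 knockout Emx1-Ptbp2KO and the line Emx1-Ptbp2KO-Ptbp1KI, in which a Ptbp1 knock-in was added to that knockout, both P1 and 129/BL6, and BL6 neocortex of embryonic days 14 (E14) and 17 (E17) and of P10. The Emx1 in these names refers to a gene active in progenitors of the dorsal telencephalon, and the labels do not describe the driver further. Each of the 7 groups had 1 library, so no difference had a replicate check, and whether a library pooled several animals is not stated. Wildtype and P2 differed in age, in strain and in the set they belonged to, and these cannot be told apart. Read depth is unknown for every level, and gene expression, by which the tissue could be checked against marker genes, was not analysed here.

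PTBP1 and PTBP2 are related proteins that bind pyrimidine-rich RNA near exons and often keep those exons out of the mature transcript. Neural progenitors contain PTBP1, young neurons replace it with PTBP2, and PTBP2 in turn declines as neurons mature. Many exons that these proteins repress belong to genes of the cytoskeleton, vesicle traffic and the synapse, and microexons, which add a few amino acids to a protein, are frequent among them. In the study, an exon was called inhibited by PTBP2 where it was higher in the knockout than in the wildtype, and activated where it was lower.

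Sequences are shown for exons that the comparison turns on. They are 5 of the short coding exons among the 12 with the widest gaps and 2 short coding exons at almost equal levels. A microexon that was higher in wildtype and the exon with the largest gap in that direction, in Clk4, are also shown. Each is given 5′ to 3′ in the spliced transcript of GENCODE M21 (build GRCm38), with the exon in capitals and 12 bases of each neighbouring exon in lower case.
Egflam, 24 nt, wildtype below P2: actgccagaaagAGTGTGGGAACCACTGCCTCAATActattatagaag
Itsn1, 15 nt, wildtype below P2: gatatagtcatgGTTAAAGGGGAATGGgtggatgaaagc
Enah, 12 nt, wildtype below P2: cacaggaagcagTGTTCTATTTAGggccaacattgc
Ccdc64, 12 nt, wildtype below P2: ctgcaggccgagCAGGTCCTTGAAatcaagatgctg
Kif1a, 24 nt, wildtype below P2: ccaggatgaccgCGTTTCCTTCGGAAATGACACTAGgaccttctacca
Gramd1b, 12 nt, nearly equal: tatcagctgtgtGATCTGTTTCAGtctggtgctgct
Tanc2, 30 nt, nearly equal: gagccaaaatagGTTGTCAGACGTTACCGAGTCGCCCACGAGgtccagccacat
Ank3, 27 nt, wildtype above P2: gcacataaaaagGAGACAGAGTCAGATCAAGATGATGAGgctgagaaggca
Clk4, 91 nt, wildtype above P2: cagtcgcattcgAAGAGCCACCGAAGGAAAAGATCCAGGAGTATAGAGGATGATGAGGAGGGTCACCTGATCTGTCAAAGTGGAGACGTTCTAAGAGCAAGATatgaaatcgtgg

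The wildtype library mostly lay below P2. It was lower in 199 of the 268 exons and higher in 69, and the median level was 42.4% in wildtype and 52.2% at P2. The median difference per exon, wildtype minus P2, was -8.39 percentage points (quartiles -17.7 and 0.266), and the median size of the difference without its sign was 11.4 points. The lists hold changes of at least 10 points between genotypes. By that size, wildtype was lower in 123 exons (45.9% of the 268) and higher in 24 (8.96%), so that 147 exons (54.9%) were apart. A gap of at least 20 points separated 55 exons (20.5%), 50 of them lower in wildtype, while 67 exons were within 5 points of each other. Despite these gaps the order of the exons was similar in both libraries, with Pearson's r of 0.841 and Spearman's rho of 0.835 across 268 exons. Each point of that correlation shares the same 2 libraries and exons of a gene are not independent, so it is given as a description.

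**Figure D1:**
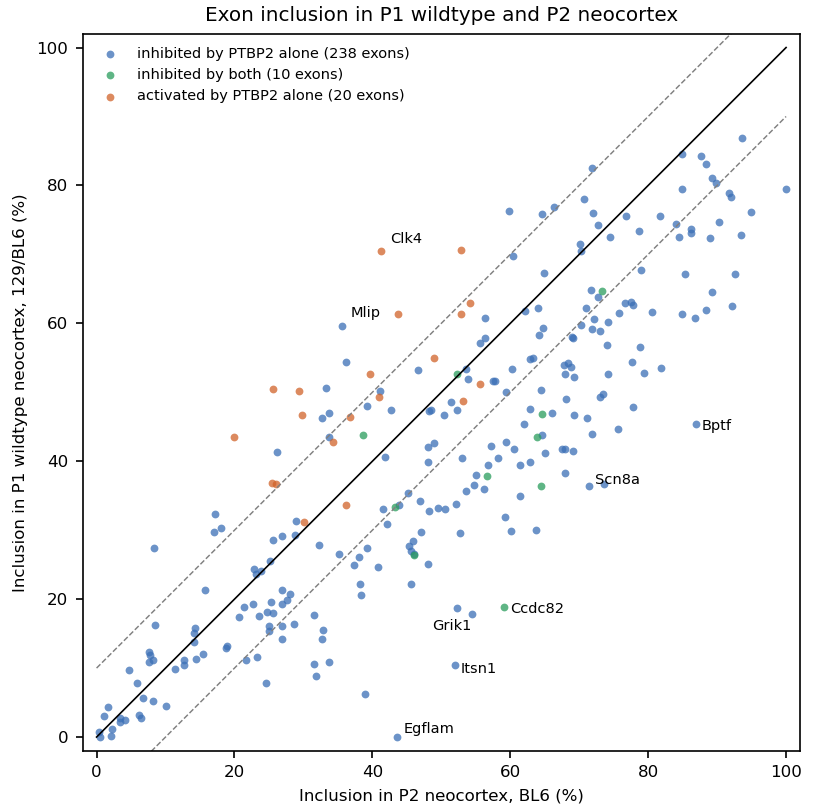
Inclusion (%) of each of the 268 exons in P2 neocortex (x axis) and in P1 wildtype neocortex (y axis), coloured by the study's class; the solid line marks equal levels and the dashed lines a gap of 10 points. Most exons inhibited by PTBP2 lie below the solid line and most exons activated by PTBP2 above it; labelled exons are the 72-nt exon of Mlip, the 91-nt exon of Clk4 and 6 of those with the widest gaps.

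The direction of the gap followed the class. Among the 238 exons inhibited by PTBP2 alone, 188 were lower in wildtype and the median difference was -9.49 points (quartiles -17.7 and -1.09). 8 of the 10 exons inhibited by both PTBP1 and PTBP2 were lower as well, by a median of -18.2 points over the 10. Among the 20 exons activated by PTBP2 alone, 17 were higher in wildtype, with a median difference of 10.2 points. A limit chosen after the data were examined kept only exons with a p-value below 1e-10 in the authors' deposited table. The median was then 17.9 points in the activated exons, of which fewer than 20 remained. In the exons inhibited by PTBP2 alone it was -6.78 points, smaller in size than the -9.49 points without the limit. In BL6 neocortex 182 of the 238 exons inhibited by PTBP2 alone were at least 10 points higher at P10 than at E14, and all 20 activated exons were at least 10 points lower, so in both classes wildtype lay mostly on the younger side of P2. The wildtype library itself helped to choose the exons, since all exons listed as inhibited were at least 10 points lower in wildtype than in the knockout, and the activated ones as far above it. The part of this choice in the gap was not tested.

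The gap was uneven over the 4 clusters of exons repressed by PTBP2 that were analysed here, as numbered by the study. In cluster 3, whose exons gain most from E14 to P10, 64 of 75 exons were lower in wildtype, by a median difference of -17.1 points, and 55 were lower by at least 10. In cluster 2, 54 of 59 were lower and the median difference was -12.7 points. Cluster 5 had a median difference of -5.82 points over 52 exons and cluster 6, which is low at most ages, -1.77 points over 52 exons. The knockout exceeded wildtype by similar medians in all 4, at 15.0, 18.2, 16.5 and 15.1 points in clusters 2, 3, 5 and 6. Exons were listed only where that rise was at least 10 points, so the likeness of these medians follows in part from the choice. The clusters were made from the BL6 ages, P2 included, so their differences are given without a test. Where the mean of both levels was under 20%, 4 of 37 exons were apart by 10 points. Whether low levels limit the gap was not tested.

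**Figure D2:**
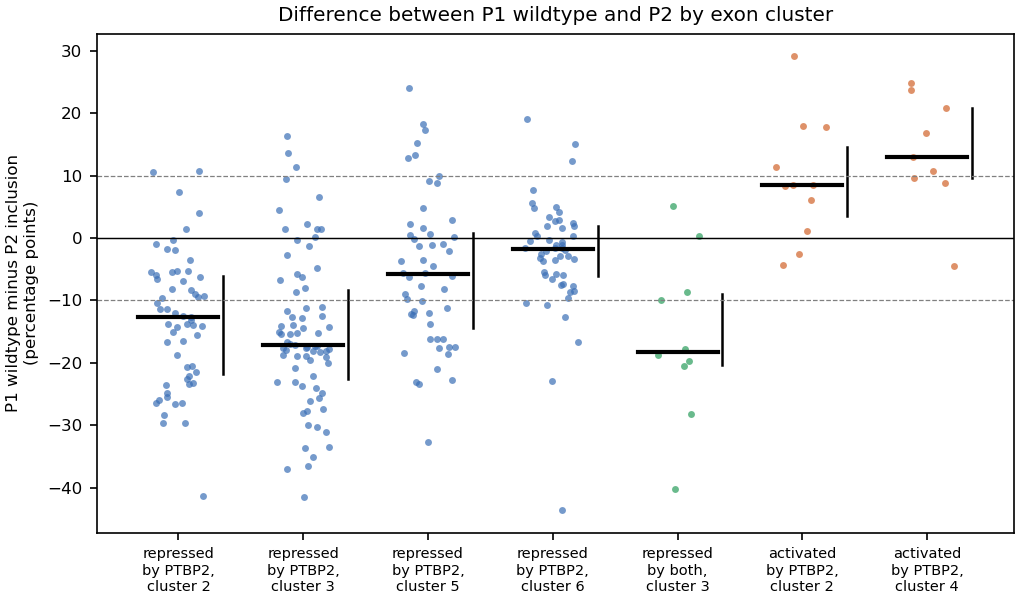
Difference in inclusion, P1 wildtype minus P2, in percentage points for each exon (points) in the 7 clusters analysed here; black bars are medians and vertical lines quartiles over exons. Medians are lowest in repressed cluster 3 (-17.1) and in exons repressed by both proteins (-18.2), near zero in repressed cluster 6 (-1.77), and above zero in activated clusters 2 (8.43) and 4 (13.003).

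Set on the BL6 ages, the P1 wildtype was closer to E17 than to P2 by distance but not by correlation. Its median distance per exon, without sign, was 19.3 points to E14, 8.91 to E17, 11.4 to P2 and 13.99 to P10. Of the 4 ages the nearest was E14 in 36 exons, E17 in 109, P2 in 65 and P10 in 58. Among the 20 activated exons E17 was nearest in 7 and P2 in 8. Pearson's r of wildtype across the 268 exons was 0.818 with E17 and 0.841 with P2, and Spearman's rho was 0.812 with E17 and 0.835 with P2. These ages share the wildtype library, so the values are only set side by side. For scale, the steps within the BL6 set had median sizes of 15.4 points from E14 to E17, 11.96 from E17 to P2 and 7.81 from P2 to P10. The distance between wildtype and P2, which are 1 day apart, was therefore of the size of the step from E17 to P2. It was larger than the step from P2 to P10. At least 10 points separated 45.1% of exons between wildtype and E17, 57.5% between P2 and E17, and 37.7% between P10 and P2.

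The level in wildtype fell between the E17 and P2 levels in 122 of the 268 exons. For the 154 exons that moved by at least 10 points from E17 to P2, the wildtype stood at a median of 41.9% of the way (quartiles 9.80% and 69.6%). It was between both ages in 101 of them, on the far side of E17 in 34 and beyond P2 in 19. If birth is taken as embryonic day 19, a straight line in time puts P1 at 75% of the way from E17 to P2. Against BL6 levels read from that line, wildtype was lower in 188 exons. The median difference was -6.06 points, with a median size of 9.0 points, and 119 exons were at least 10 points apart. In the exons inhibited by PTBP2 alone it was -6.99 points and in the activated ones 8.36 points.

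**Figure D3:**
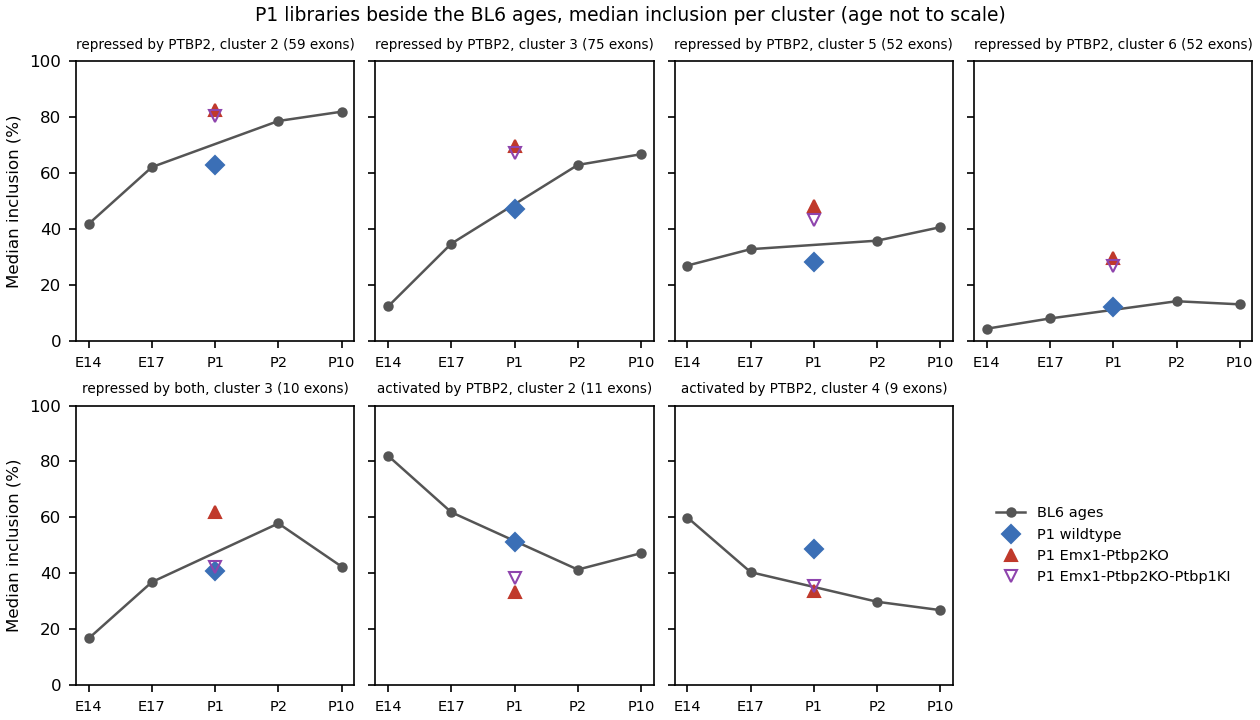
Median inclusion (%) of each cluster in BL6 neocortex at E14, E17, P2 and P10 (grey line, ages not to scale) and in the P1 libraries: wildtype (diamond), Emx1-Ptbp2KO (filled triangle) and Emx1-Ptbp2KO-Ptbp1KI (open triangle). In repressed cluster 2 the wildtype median (62.9%) is close to the E17 median (62.2%) and below that of P2 (78.6%), whereas the knockout median (82.6%) lies above P2.

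Exons with larger gains between E14 and P10 tended to have the larger deficit in wildtype. Across the 268 exons the difference between wildtype and P2 correlated with the change from E14 to P10 at Pearson's r of -0.515 and Spearman's rho of -0.503. These changes share no library, but P2 belongs to the same set as E14 and P10. Much of the relation lay between clusters: within repressed clusters 2, 3, 5 and 6, r was -0.253, -0.106, -0.166 and -0.220. Of the exons inhibited by PTBP2 alone, 182 were at least 10 points higher at P10 than at E14, and wildtype was below P2 in 154 of them, with a median difference of -12.7 points. In the 9 that were lower at P10 by as much, wildtype was below P2 in 6, with a median difference of -3.29 points.

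The 12 exons farthest apart were all lower in wildtype, at 0 to 45.5% against 38.9 to 86.9% at P2. 10 of the 12 were coding, where 66.4% of all 268 exons were, and 6 were at most 27 nt long, where 13.8% of all were. In 11 of the 12 the knockout and the knock-in were also below P2, so that all 3 P1 libraries stood apart from it. The same held for 42 of the 50 exons lower by at least 20 points, and for 72 of all 268 (26.9%). The 12 and the 50 were picked for a wildtype level far below P2. In the 50, the knockout exceeded wildtype by a median of only 17.5 points. The larger shares among them thus follow in part from that choice and are given as a description.

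The widest gap was in Egflam, which encodes pikachurin, a synaptic matrix protein known from photoreceptors. Its 24-nt exon (GRCm38 chromosome 15, 7224645 to 7224668, coding) was listed at 0% in wildtype and at 43.6% at P2. The knockout reached 18.03%, the knock-in 18.2%, and the other BL6 ages were at 0% (E14), 3.70% (E17) and 18.1% (P10). The P2 library was the highest of the 7 here.

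The 15-nt microexon of Itsn1, which encodes the endocytic scaffold intersectin, was at 10.5% in wildtype and 51.9% at P2 (chromosome 16, 91842628 to 91842642, coding). The knockout level was 20.9%, the knock-in level 23.9%, and the BL6 levels were 15.5% at E14, 30.1% at E17 and 59.2% at P10. Every P1 library was thus below E17 in this exon, and a second gene is annotated here on the other strand. Bptf encodes a chromatin remodelling subunit that reads histone methylation. Its 186-nt coding exon was at 45.5% in wildtype and 86.9% at P2, with 66.5% in the knockout and 71.8% at E17. A second Bptf exon, of 189 nt, was at 31.9% in wildtype and 59.2% at P2.

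Actin and motor genes supplied further microexons. The 12-nt exon of Enah, an actin filament elongation factor, was at 18.7% in wildtype and 52.2% at P2 (chromosome 1, 181931174 to 181931185). At 15.1%, the E17 level was closer to wildtype. Kif1a, a kinesin that carries axonal cargo, had 29.9% inclusion of its 24-nt exon in wildtype and 60.2% at P2, with 30.6% at E17 (chromosome 1, 93026832 to 93026855). The knockout reached 47.3% in this exon, which is still below P2. A 12-nt exon of Ccdc64, which encodes a dynein adaptor, was at 44.7% in wildtype and 75.7% at P2. A 24-nt exon of the formin Fhod1 was at 6.25% in wildtype and 38.9% at P2, and it is the exception among the 12, where the knockout was 1.11 points above P2.

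Channel and signalling genes were also among the 12. A 123-nt coding exon of Scn8a, a neuronal sodium channel, was at 36.3% in wildtype and 71.3% at P2, and was at 7.78% at E14 and 90.6% at P10. An 87-nt exon of the kainate receptor gene Grik1 was at 17.9% in wildtype and 54.4% at P2, with 40.4% at E17. A 33-nt exon of the lipid kinase Pikfyve was at 36.7% in wildtype and 73.6% at P2. An untranslated exon of Ccdc82 was at 18.9% in wildtype and 59.1% at P2.

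**Figure D4:**
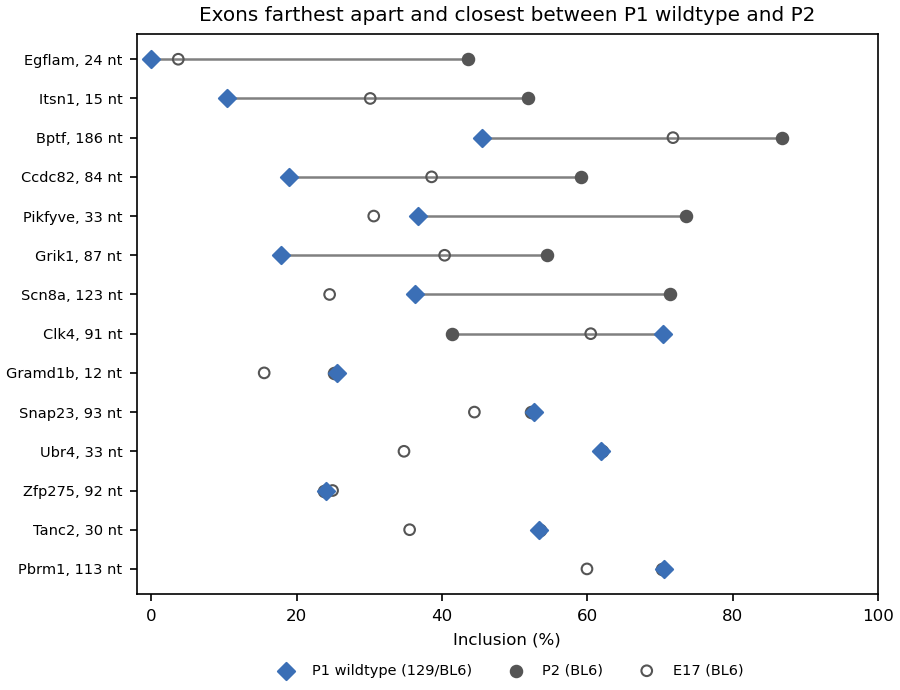
Inclusion (%) in P1 wildtype (diamond), P2 (filled circle) and E17 (open circle) for the 7 exons with the widest gap between wildtype and P2, for the 91-nt Clk4 exon, and for the 6 exons at 20 to 80% with the smallest gap. Grey lines join wildtype and P2; in the upper 7 exons wildtype is on the left, and in Clk4 it is on the right (70.4% against 41.3%).

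At the other end, 6 exons at levels of 20 to 80% differed by at most 0.389 points. A 113-nt exon of the chromatin remodeller Pbrm1 was at 70.5% in wildtype and 70.3% at P2. A 33-nt exon of the ubiquitin ligase Ubr4 was at 61.9% in wildtype and 62.1% at P2, although E17 was at 34.8%. A 30-nt exon of the postsynaptic scaffold Tanc2 was at 53.3% in wildtype and 53.5% at P2. The 12-nt exon of Gramd1b, a lipid transfer protein gene, was at 25.5% in wildtype and 25.1% at P2, Snap23 at 52.6% in wildtype and 52.3% at P2, and Zfp275 at 24.04% in wildtype and 23.8% at P2. These 6 exons were picked for having the smallest gaps at levels that leave room for one, and the error of their levels is unknown. Whether a gap between the 2 sets is absent from any exon was therefore not tested.

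Exons activated by PTBP2 showed the opposite gap. Only the 91-nt coding exon of Clk4, a kinase of SR splicing factors, lay beyond 1.5 interquartile ranges from the quartiles of all 268 exons. Most of the 268 are inhibited exons, and by the quartiles of the 20 activated exons alone Clk4 was not outlying. By the quartiles of their own classes, exons of Egflam and Mlip (inhibited by PTBP2 alone) and Ccdc82 (inhibited by both) were. The Clk4 exon was at 70.4% in wildtype and 41.3% at P2 (chromosome 11, 51273078 to 51273168), a difference of 29.1 points. The E14 and E17 levels were 68.0% and 60.5%, the P10 level was 47.2%, and the knockout was at 37.7%. Of the 4 ages E14 was nearest to wildtype, and the knockout lay below P2. Further activated exons, named after their values were seen, had smaller gaps. An exon of the adhesion molecule Cadm1 was at 43.5% in wildtype and 19.9% at P2. A Zscan29 exon was at 50.5% in wildtype and 25.6% at P2, and an exon of Atp6v1h, a proton pump subunit, at 50.2% in wildtype and 29.3% at P2. Coding exons of the transcriptional coregulators Med15, Crtc2 and Ep400 were higher in wildtype by 17.9, 17.7 and 16.9 points. The exceptions were exons of Nmt2, Edrf1 and Cadm3, with differences of -2.53, -4.38 and -4.47 points.

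The 10 exons inhibited by both proteins had a median of 40.6% in wildtype and 57.8% at P2, with the knockout at 61.8% and the knock-in at 42.4%. P2 exceeded wildtype by at least 10 points in 7 of them. Beside Ccdc82, the gap was wide in Stx2 and Apc, described with their lists, and in Mtf2, a Polycomb-associated factor, at 26.3% in wildtype and 46.1% at P2. Plod2, a collagen-modifying enzyme gene, was at 46.9% in wildtype and 64.6% at P2. The exons of Snap23 and of Unc13b, a vesicle priming gene (43.8% in wildtype and 38.6% at P2), were level or higher in wildtype. The knock-in level entered the definition of this class, so it is given as a description.

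In the inhibited class, 14 exons went against their class and were at least 10 points above P2 in wildtype. These are named after their values were seen. The 63-nt coding exon of Grin1, the obligatory subunit of NMDA receptors, was at 27.4% in wildtype and 8.39% at P2, and no BL6 age reached more than 13.3%. A 72-nt exon of Mlip was at 59.7% in wildtype and 35.6% at P2, and it also lay above every BL6 age. The 27-nt exon of Ank3, the ankyrin of the axon initial segment, was at 54.4% in wildtype and 36.1% at P2. In this exon the BL6 level declines with age, from 46.1% at E14 to 20.6% at P10. Others were exons of the channel subunits Cacna2d2 (50.7% in wildtype and 33.3% at P2) and Cacna1c (82.6% in wildtype and 71.8% at P2) and of the presynaptic adhesion gene Nrxn2 (76.9% in wildtype and 66.3% at P2). Also in this group were a second Mlip exon and exons of Iqsec3, Fmnl1, Mvk, Golga2, Ckap5 and Vps8.

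The gene lists hold few exons each, and their counts are read against all 268 exons, of which 45.9% were lower and 8.96% higher in wildtype by at least 10 points. Of the 17 synapse and ion channel exons from 14 of the 62 listed genes, 6 (35.3%) were at least 10 points lower in wildtype, 4 (23.5%) were higher and 7 were within 10 points, with a median difference of -0.605 points against -8.39 over all 268 exons. On the lower side were Scn8a, Magi1, Shank3 and 3 exons of Agrn with shared ends. Agrn encodes the synapse organiser agrin, and its 24-nt exon was at 43.8% in wildtype and 64.6% at P2. Exons of the kinase subunit Camk2d (23.6% in wildtype and 23.1% at P2) and of the vesicle priming gene Unc13a (1.12% in wildtype and 2.18% at P2) were nearly level.

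Vesicle traffic genes had 9 exons, of which 6 were at least 10 points lower in wildtype (66.7%, against 45.9% of all 268), none was higher by as much, and the median difference was -18.1 points, against -8.39 over all. With 9 exons from 7 genes, 3 of them from Synj1, this says nothing particular to the list. A 93-nt exon of the exocyst gene Exoc7 was at 67.2% in wildtype and 92.6% at P2, while the knockout was at 92.3%. The 3 exons of Synj1, 2 of which share an end, from a lipid phosphatase gene of synaptic vesicle recycling, were lower in wildtype, by differences of -23.3, -22.2 and -18.1 points. A 28-nt exon of the fusion protein gene Stx2 was at 36.4% in wildtype and 64.5% at P2. The Ap2a1 exon, from a clathrin adaptor, was at 74.2% in wildtype and 72.7% at P2.

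In the microtubule and motor list, 4 of 8 exons were at least 10 points lower in wildtype and 1, in Ank3, was higher, with a median difference of -12.3 points. These shares are near the 45.9% lower and 8.96% higher of all 268 exons. A 180-nt exon of the kinesin Kif21b was at 71.5% in wildtype and 70.04% at P2. Actin and adhesion genes had 9 exons, 4 lower and 1 higher by at least 10 points, with a median of -8.72 points, and these shares of 44.4% and 11.1% are also near those of all exons. Among them, the 138-nt exon of Dbn1, whose inclusion distinguishes adult from embryonic drebrin, was at 2.12% in wildtype and 3.34% at P2 and at 62.3% by P10, while E14 and E17 were at 0.249% and 0.667%. Axon growth and guidance genes had 5 exons with a median of -6.18 points, 2 lower and 1 higher by at least 10, where 45.9% and 8.96% of all exons were. The exon of the guidance receptor Robo2 was at 58.8% in wildtype and 73.01% at P2, that of the ephrin receptor Epha5 at 51.6% in wildtype and 57.8% at P2, and that of Apc, a microtubule and beta-catenin regulator, at 43.5% in wildtype and 63.9% at P2.

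RNA-binding and chromatin genes had too few exons to set their counts apart from the 45.9% lower and 8.96% higher of all 268. The 7 of RNA binding and splicing had a median difference of -5.71 points, with 2 lower and 1, the activated Clk4 exon, higher by at least 10. The 74-nt exon of the translational repressor Pum2 was at 11.1% in wildtype and 12.6% at P2. A 92-nt exon of Fxr1, a relative of the fragile X protein, was at 38.3% in wildtype and 67.9% at P2, and here too another gene runs on the other strand. Of the 4 chromatin and transcription exons, 3 were lower by at least 10 points. Smarcc2, a subunit of SWI/SNF remodelling complexes, was at 41.8% in wildtype and 67.4% at P2, the 27-nt exon of Baz2b was at 72.8% in wildtype and 93.5% at P2, and the 72-nt exon of Ikzf4 was at 9.68% in wildtype and 4.69% at P2. No exon of Ptbp1, Ptbp2 or Ptbp3 was among the 268.

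The median gap was wider in microexons than in longer exons. The 37 exons of at most 27 nt, all inhibited by PTBP2 alone, had a median difference of -17.3 points (quartiles -24.8 and -0.605). For the 201 longer exons of this class it was -8.93 points (quartiles -17.0 and -1.15). By at least 10 points, 21 microexons (56.8%) were lower and 4 (10.8%) higher, against 47.3% and 4.98% of the longer exons of the class and 45.9% and 8.96% of all 268 exons. The pattern was present within cluster 3, where 17 microexons had a median of -22.2 points and 58 longer exons -15.2 points, and within cluster 2, with -20.6 points in 5 microexons and -12.6 points in 54 longer exons. Microexons of cluster 3 lower in wildtype included those of the motor gene Myo6 (41.4% in wildtype and 69.1% at P2), the kinase gene Mast4 (43.9% in wildtype and 71.9% at P2), the neuron navigator Nav1 (46.3% in wildtype and 71.1% at P2) and the scaffold Shank3 (39.4% in wildtype and 56.8% at P2). The 6-nt exon of Vps8, an endosomal tethering gene, was the exception in this cluster, at 75.9% in wildtype and 64.5% at P2. In cluster 6 the difference in medians was not seen: 12 microexons had a median of -0.108 points and 40 longer exons -2.0 points. In cluster 5 it ran the other way, with a median of 17.4 points in 3 microexons, of which 2 were at least 10 points higher and 1 as much lower, and -6.01 points in 49 longer exons. Of the 50 exons lower in wildtype by at least 20 points, 15 were microexons and 84.0% had a length divisible by 3. Of the 121 exons within 10 points, 12 were microexons and 66.9% had such a length. Of the 24 exons higher in wildtype by at least 10 points, 16.7% were microexons and 79.2% had such a length. Over all 268 exons these shares were 13.8% and 70.1%. The spread within each length group was wide, and length was not tested apart from level, reading frame or gene.

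**Figure D5:**
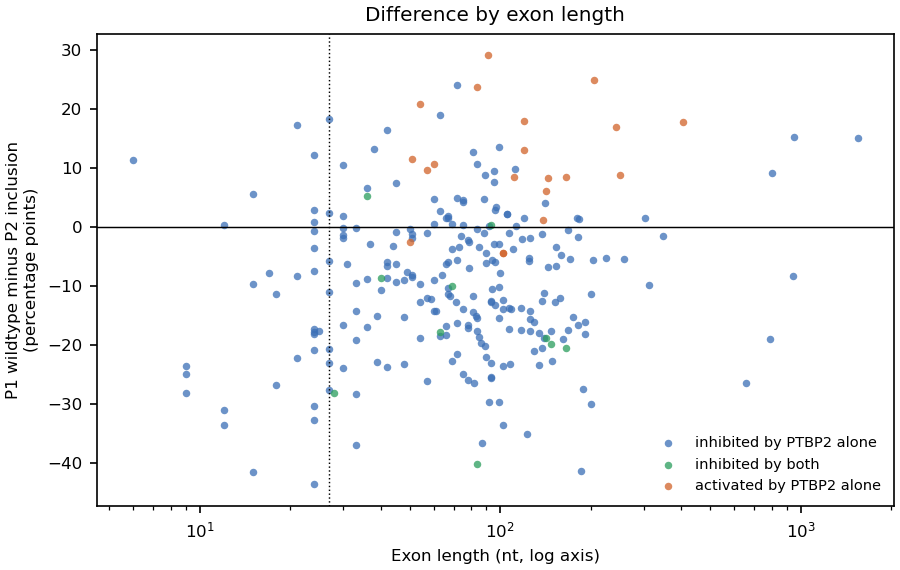
Difference in inclusion, P1 wildtype minus P2, in percentage points (y axis) against exon length in nt (log x axis), coloured by class; the dotted line marks 27 nt. The shortest exons reach from Egflam (-43.6) to Ank3 (18.3), and most of the 37 to the left of the line lie below zero (28 exons).

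Several genes had more than 1 of the exons. Of the 19 genes with more than 1 exon among the 268, 15 had all of them on the same side, and the median spread within a gene was 4.19 points. Since 74.3% of all 268 exons were lower in wildtype and some of these exons overlap, as in Agrn, Atp2b4, Mcf2l, Myo18a and Synj1, this does not show that exons of a gene share the gap. In 4 genes exons lay on both sides, with spreads of 41.3 points in Clk4, 15.4 in Ikzf4, 9.49 in Pbrm1 and 3.34 in Adgrl2. In Clk4 the activated 91-nt exon was higher in wildtype by 29.1 points. Its inhibited exons of 59 and 67 nt were lower, by differences of -12.1 and -5.97 points.

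The gap bears on how the knockout compares with P2. In the 238 exons inhibited by PTBP2 alone the median was 62.7% in the knockout and 53.2% at P2, against 41.4% in wildtype. Every one of these exons was at least 10 points higher in the knockout than in wildtype, as in the whole list. Set against P2 instead, 99 were at least 10 points higher in the knockout (over all 268 exons 38.4% were), 20 were at least 10 points lower (10.8% of the 268), and 119 were within 10 points. The median difference, knockout minus P2, was 6.77 points, against 15.8 points for knockout minus wildtype. The exons were chosen on the second of these and not on the first, so the values are a description.

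By cluster, 12 of 59 exons of cluster 2, 24 of 75 of cluster 3, 28 of 52 of cluster 5 and 35 of 52 of cluster 6 were at least 10 points above P2 in the knockout. At least 10 points below P2 were 7 exons of cluster 2, 10 of cluster 3, 1 of cluster 5 and 2 of cluster 6. The medians of the difference were 2.96, 2.89, 10.8 and 15.3 points in clusters 2, 3, 5 and 6, so that the small medians of clusters 2 and 3 include exons well above and well below P2. In the 20 activated exons the knockout was at least 10 points below P2 in 7 and above it in 1, with a median difference of -3.08 points. Over all 268 exons the median distance to P2, without sign, was 9.60 points for the knockout, 9.37 for the knock-in and 11.4 for the wildtype.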

How the data were processed

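RNA of mouse neocortex was extracted with TRIzol and sequenced from strand-specific libraries, per the labels' protocols. The submitters' processing notes name STAR and the build GRCm38 (mm10). The authors deposited inclusion ratios, each a fraction from 0 to 1, per the file headers. The way reads were counted, and any use of strand in it, is not given in the sources used. The deposited tables also hold differences between ratios (a score from -1 to 1) and a p-value for each exon, per the file headers; the p-value entered 1 alternative only. By elimination, the DM column was taken as the knock-in line.

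Fractions were multiplied by 100. All 268 exons of the age tables matched a listed exon, and all 268 matched an exon of GENCODE M21 (same build, 1-based coordinates), from which coding status, overlapping genes and sequences were read. 10 exons overlap a gene of the other strand and 4 another gene of the same strand. With 1 library per group no test was run; medians and quartiles are over exons. The members, the 8 gene lists (298 genes) and the rules were chosen with earlier results of these data known. Named were the 12 exons with the largest gap, the 6 with the smallest at levels of 20 to 80%, the 2 largest and the smallest of each list, and Ptbp genes; all others were chosen after their values were seen. Some exons that meet these rules are not reported here. Counts and depths were not used, so the error of single levels is unknown. Alternatives were 1 exon per gene, no exons at 0 or 100%, levels of 10 to 90%, no overlapping genes, joining without strand, interpolated ages, means, rho, logit distances, 20 points and a tolerance of 2 points. Python 3.11.15, numpy 2.4.6, pandas 2.3.3, scipy 1.17.1 and matplotlib 3.10.9 were used. The functions were tested on simulated data.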

Additional observations from a re-analysis of the deposited data

How the results depend on the processing

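The direction of the gap was the same in both PTBP2 classes under every alternative. Against BL6 levels interpolated to P1 the median size of the gap was 9.0 points. With levels of 10 to 90% in both libraries Pearson's r was 0.771. With a minimum of 20 points, 55 exons were apart and 51 inhibited exons were that far above P2 in the knockout. In exons with a p-value below 1e-10 in the authors' deposited table, an alternative chosen after the data were examined, the median difference was -6.78 points in the inhibited and 17.9 points in the activated class. Of these 144 exons, 74 (51.4%) were at least 10 points apart, against 54.9% of all 268. P2 was nearest in 36 (25%, against 24.3%), and 67 lay between E17 and P2 (46.5%, against 45.5%). These counts fell with the number of exons, while their shares changed little. The limit kept exons of Egflam and Slc35a3, at 0% in wildtype, and of Pcdh15, at 100% in the knockout. Their listed p-value was 0, and what such exons add to these values was not tested. The cause of the changed medians was not tested. In the other 53 of 62 alternatives no count moved by over 1.5 times, and no median or r left the 95% interval over exons, which treats exons as independent. No paired analysis was possible because each group has 1 library. The lack of depths leaves the error of single levels unknown, above all at 0 or 100%.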
